A study of Mus musculus with 16 samples.

Results

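The genes described here take cholesterol out of the hepatocyte, take it up from HDL or move it between its free and its esterified form. They are *Abca1*, *Abcg1*, *Abcg5*, *Abcg8*, *Scarb1*, *Soat1*, *Soat2*, *Lcat*, *Nceh1* and *Lipa*, 10 of the 52143 genes in the count table, taken by symbol for their role. All 10 passed the filter on low counts, among 11324 genes tested. The data are RNA-seq of whole liver from 16 male C57BL6/J mice, 4 in each of 4 groups. Mice were 6 weeks old at the start and were fed chow (Mouse Diet 9F) or a high-fat diet with 60% fat (HFD, D12492) for 12 weeks. An siRNA that targets *Fgfr4*, coupled to N-acetylgalactosamine (GalNAc), a sugar that directs it to hepatocytes, was given under the skin at 3 mg/kg every 2 weeks, and the other mice received 0.9% sodium chloride. Saline-injected mice form the groups Chow and HFD, and siRNA-injected mice form Chow/FGFR4 KD and HFD/FGFR4 KD. No group analysed here received an siRNA without a target in the liver, so the injection of an siRNA and the knockdown (KD) cannot be told apart. No allele was altered. Mice were housed 4 per cage, and the cage of each mouse was not given.

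A cell cannot break down the ring system of cholesterol, so it exports surplus cholesterol, converts it to bile acids or stores it as cholesteryl ester. In the liver, ABCA1 and ABCG1 pass cholesterol to apolipoproteins and HDL, ABCG5 and ABCG8 together form the transporter that secretes sterols into bile, and SR-BI, the product of *Scarb1*, takes up cholesteryl ester from HDL. SOAT1 and SOAT2 esterify cholesterol inside the cell, LCAT does so on HDL in plasma, and NCEH1 and the lysosomal acid lipase LIPA release cholesterol from its esters. The liver X receptors (LXR), which sense oxidised cholesterol, switch on *Abca1*, *Abcg1*, *Abcg5* and *Abcg8*, while SREBP2 switches on synthesis and LDL uptake when sterol is low.

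*Abcg5* and *Abcg8* are neighbours. In GRCm38, *Abcg5* (ENSMUSG00000040505) lies on the minus strand of chromosome 17 from 84658234 to 84683011 and *Abcg8* (ENSMUSG00000024254) on the plus strand from 84676302 to 84700333. Their main start sites, at 84683011 and 84683121, face away from each other with 109 bases between them. A second annotated start of *Abcg8*, at the beginning of its span, lies inside *Abcg5*. Whether the counting used strand was not stated, so that reads from the stretch both genes cover cannot be told apart by strand, and 1.94% of the 31-base words of *Abcg5* transcripts also occur in other genes, most often *Abcg8*. The stretch between the start sites is shown because both genes start from it and their levels followed each other more closely than either followed any other gene of at least 5 CPM. It is the plus strand of chr17:84682991-84683131 from the RefSeq promoter table (build GRCm38.p6), with 21 bases of the first exon of *Abcg5* at its left end and 11 bases of the first exon of *Abcg8* at its right end. The capitals mark AGATAA or its reverse complement, the core of the sites that GATA factors bind.

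Abcg5-Abcg8: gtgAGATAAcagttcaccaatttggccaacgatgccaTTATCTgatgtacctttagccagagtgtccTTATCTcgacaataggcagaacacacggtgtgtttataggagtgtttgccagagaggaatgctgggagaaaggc

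The letters AGATAA were found 3 times, on either strand, in the 300-base promoter windows of both genes, which reach from 250 bases before a start site to 50 after it and overlap by 209 bases. Of the 32851 windows in the table, 11.2% held AGATAA at least once and 0.107% at least 3 times. The promoter of *Abca1* (ENSMUSG00000015243, minus strand of chromosome 4, 53030787 to 53159895) is shown because it holds the kind of element through which LXR binds DNA. The stretch is chr4:53159911-53160045 on the minus strand, from the same table, and lies wholly before the start site. The capitals mark CACGTG, known as an E-box, and a match to a DR4 element, which is AGGTCA written as a pair in the same direction with 4 bases between.

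Abca1: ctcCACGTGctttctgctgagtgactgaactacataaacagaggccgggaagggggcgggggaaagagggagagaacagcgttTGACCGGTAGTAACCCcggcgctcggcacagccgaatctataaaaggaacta

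The DR4 match was allowed to differ from the AGGTCA pair at up to 3 of 12 bases on either strand, a setting under which 21.9% of all windows held at least 1 match. CACGTG occurred in 7.15% of windows. Also searched on both strands were AGGTCA alone (16.3% of windows), TGATAA (9.05%), neither found in a window of the 10 genes, and TATAAA (13.6%), found in the windows of *Abca1* and *Lipa* and once in the stretch that *Abcg5* and *Abcg8* share. Windows were in the table for 7 of the 10 genes. With the same setting a DR4 match was also present in the window of *Lcat*, and CACGTG in that of *Nceh1*. The window of *Lcat* also held 1 AGATAA. The windows of *Abcg5* and *Abcg8* held no such DR4 match, which says nothing about elements elsewhere in these genes.

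Total counts per library ran from 3445949 to 5976449, and floors derived from them cover counting error only. The intervals of the fold given below come from the same fit as the p-values of single genes and include the spread between libraries. *Fgfr4* was checked first: the highest KD library had 6.17 CPM (counts relative to the library total, scaled with TMM factors) against 21.8 CPM in the lowest of the saline-injected mice. The summed level of 8 hepatocyte markers, *Alb*, *Ttr*, *Apoh*, *Fgb*, *Tat*, *Cyp2e1*, *Cps1* and *Hnf4a*, lay between 59992 and 76848 CPM over all libraries, with none at 0, and 4 of the 8 fell with HFD in saline-injected mice. Chow/FGFR4 KD 4 and HFD/FGFR4 KD 1 stood apart from their groups: their median correlations with the other libraries of the group, across the 11324 genes, were 0.950 and 0.955, against 0.959 to 0.971 in the other 14. For the 10 genes, calls, directions and larger shifts that rest on them are given with and without them. Correlations between genes and with marker sums were not recomputed without them. Each library came from a separate mouse, and p-values measure the spread between these mice.

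The plot of levels by library shows every value on which the following comparisons rest.

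**Figure D1:**
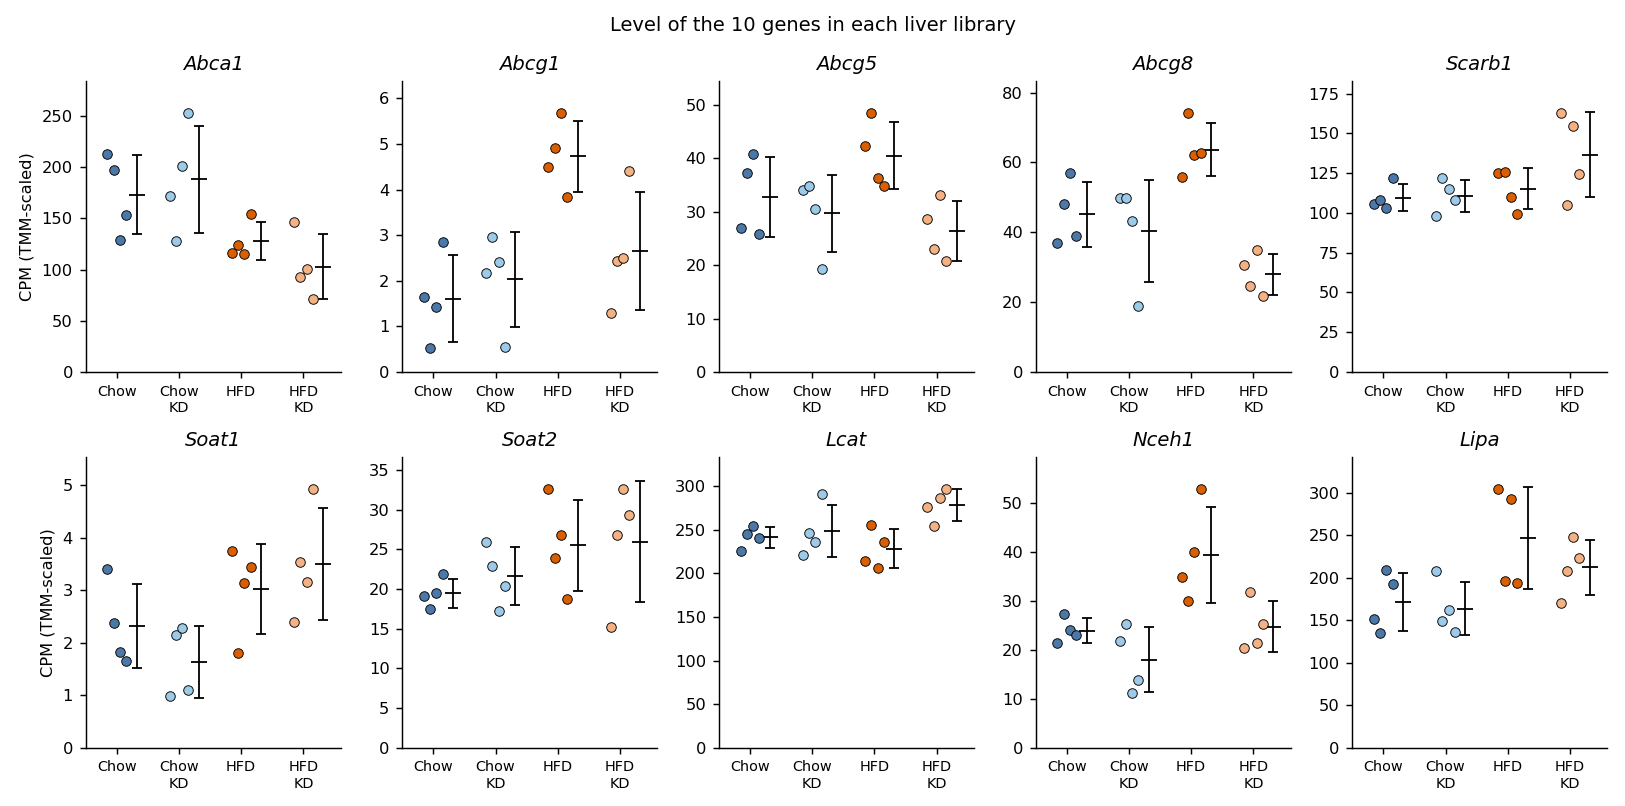
Level of each of the 10 genes in each library, in TMM-scaled CPM on axes that start at 0. Each point is 1 of the 4 libraries of a group and the black mark and bar are the mean ± SD. The HFD/FGFR4 KD points of *Abcg8* lie between 21.8 and 34.9 CPM, below all HFD points, which start at 55.8 CPM, and the HFD points of *Abcg1* lie above all Chow points.

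The 10 genes covered a wide range of abundance. The labels name an mRNA library kit (KAPA mRNA HyperPrep) and the study's methods a probe-based assay (HTG EdgeSeq), and in the latter a level per kb or the share of words in common between genes would not apply. Divided by the length of the longest protein-coding transcript, the mean over the 16 libraries was highest for *Lcat* at 186 ± 20.2 CPM per kb (SD, n = 16), followed by *Lipa* at 66.9 ± 17.02 CPM per kb and *Scarb1* at 46.8 ± 7.29 CPM per kb. *Abca1* (14.4 ± 4.75 CPM per kb), *Abcg5* (13.7 ± 3.41), *Abcg8* (12.1 ± 4.35) and *Soat2* (10.5 ± 2.45) lay within each other's spread. *Nceh1* had 5.93 ± 2.25 CPM per kb. *Abcg1* and *Soat1* were the least abundant, with 0.472 ± 0.265 and 0.313 ± 0.127 CPM per kb, and rested on 2 to 37 and 4 to 26 counts per library. With the median transcript length in place of the longest they had 2.41 and 1.40 CPM per kb, still the lowest, while *Scarb1* at 74.0 CPM per kb passed *Lipa* and *Abcg8* at 18.4 CPM per kb passed *Abcg5* and *Abca1*. At that depth their values carry a wide counting error. In whole liver, fewer cells of a type and less RNA per cell cannot be told apart.

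KD on HFD was examined first, since it asks how these genes are set when the receptor that restrains bile acid synthesis is reduced. The pair of biliary sterol transporters fell, *Abcg8* to 0.442 and *Abcg5* to 0.655 of the level in saline-injected mice on HFD. The ester hydrolase *Nceh1* fell to 0.633, and *Lcat*, the enzyme that esterifies cholesterol on HDL, rose 1.22-fold. The other 6 genes did not pass the test. The rule for a call was that of the study, namely an unadjusted p under 0.05 together with a Benjamini-Hochberg value (adjusted p) under 0.25. Limma-voom called 4 of 10 genes, 3 lower and 1 higher, where it called 3.14% of all genes tested, 1.64% as lower and 1.5% as higher. With scaling by library totals *Abcg8* was the only call among the 10. With TMM scaling and an adjusted p under 0.05, limma-voom called 1 of the 10 (*Abcg8*) and 0.274% of all genes. The median log2 change of the 10 was -0.27, beside 0.00 over all genes.

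*Abcg8* had 55.8, 74.1, 62.2 and 62.6 CPM in the HFD libraries and 30.6, 24.6, 34.9 and 21.8 CPM in the HFD/FGFR4 KD libraries. No KD library reached the lowest saline library. *Abcg8* changed by -1.18 on the log2 scale (SE 0.239, limma-voom, adjusted p 0.0496; 95% interval of the fold 0.311 to 0.627). It remained called when each of the 8 libraries was left out in turn, with adjusted p from 0.0747 to 0.158, and under all 11 other settings, with adjusted p from 0.000477 to 0.0837.

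*Abcg5*, its obligate partner, had 42.4, 48.4, 36.3 and 34.7 CPM on HFD and 28.6, 23.02, 33.0 and 20.7 CPM with KD. The groups did not overlap, although HFD/FGFR4 KD 3 at 33.0 CPM came close to HFD 4 at 34.7 CPM. Its log2 change was -0.61 (SE 0.193, limma-voom, adjusted p 0.227; edgeR, adjusted p 0.255). The call was lost when any single library other than HFD 4 was left out (adjusted p up to 0.455), while the log2 change stayed between -0.74 and -0.51. *Abcg5* and *Abcg8* were the 2 of 10 genes whose libraries did not overlap between these groups, which was so for 6.49% of all genes.

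*Nceh1* (ENSMUSG00000027698, plus strand of chromosome 3, 27182965 to 27284608), which hydrolyses cholesteryl ester at the endoplasmic reticulum, had 35.0, 29.9, 40.01 and 52.9 CPM on HFD and 20.4, 31.9, 21.4 and 25.4 CPM with KD. HFD/FGFR4 KD 2 lay above HFD 2. It changed by -0.66 on the log2 scale (SE 0.202, limma-voom, adjusted p 0.211; edgeR, adjusted p 0.260), and the call was lost without 6 of the 8 libraries (all but HFD 2 and HFD/FGFR4 KD 2), with adjusted p up to 0.441. *Lcat* (ENSMUSG00000035237, minus strand of chromosome 8, 105939551 to 105943382) had 214, 256, 206 and 236 CPM on HFD and 276, 254, 286 and 297 CPM with KD. All KD libraries except HFD/FGFR4 KD 2 lay above the highest saline library. *Lcat* changed by 0.29 on the log2 scale (SE 0.0925, limma-voom, adjusted p 0.228; edgeR, adjusted p 0.295). Of the 8 single libraries, leaving out any but HFD 2 and HFD/FGFR4 KD 2 ended this call too, with adjusted p up to 0.494. Without both libraries that stood apart *Nceh1* and *Lcat* were not called, while *Abcg8* (-1.22, adjusted p 0.00817) and *Abcg5* (-0.65, adjusted p 0.213) were.

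*Abcg1* (ENSMUSG00000024030, plus strand of chromosome 17, 31057675 to 31117988), which loads cholesterol onto HDL, had 4.50, 4.90, 5.67 and 3.84 CPM on HFD and 1.30, 2.43, 2.49 and 4.404 CPM with KD. HFD/FGFR4 KD 4 lay inside the range of the saline libraries. The log2 change of -0.95 (SE 0.362) had an adjusted p of 0.334 (limma-voom) and was not called. Without HFD/FGFR4 KD 1, which had the lowest *Abcg1*, it was -0.68 (adjusted p 0.625). *Abca1*, which starts HDL formation by lipidating APOA1, had 116, 124, 115 and 155 CPM on HFD and 147, 92.7, 100 and 71.5 CPM with KD, a log2 change of -0.35 (SE 0.220, adjusted p 0.613). The highest KD library was HFD/FGFR4 KD 1, 1 of the 2 that stood apart. Without both of these libraries the log2 change of *Abca1* was -0.53, and it was not called.

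For the remaining genes the interval of the change is given. The 95% interval of the fold was 0.980 to 1.41 for *Scarb1*, 0.745 to 1.74 for *Soat1*, 0.739 to 1.33 for *Soat2* and 0.671 to 1.14 for *Lipa*. The log2 change of *Soat2* went from -0.01 to 0.23 without HFD/FGFR4 KD 1 and was not called. *Scarb1* ran from 105 to 163 CPM in HFD/FGFR4 KD and from 99.2 to 126 CPM in HFD, and was called when HFD/FGFR4 KD 2, its lowest KD library, was left out (0.35, adjusted p 0.222).

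**Figure D2:**
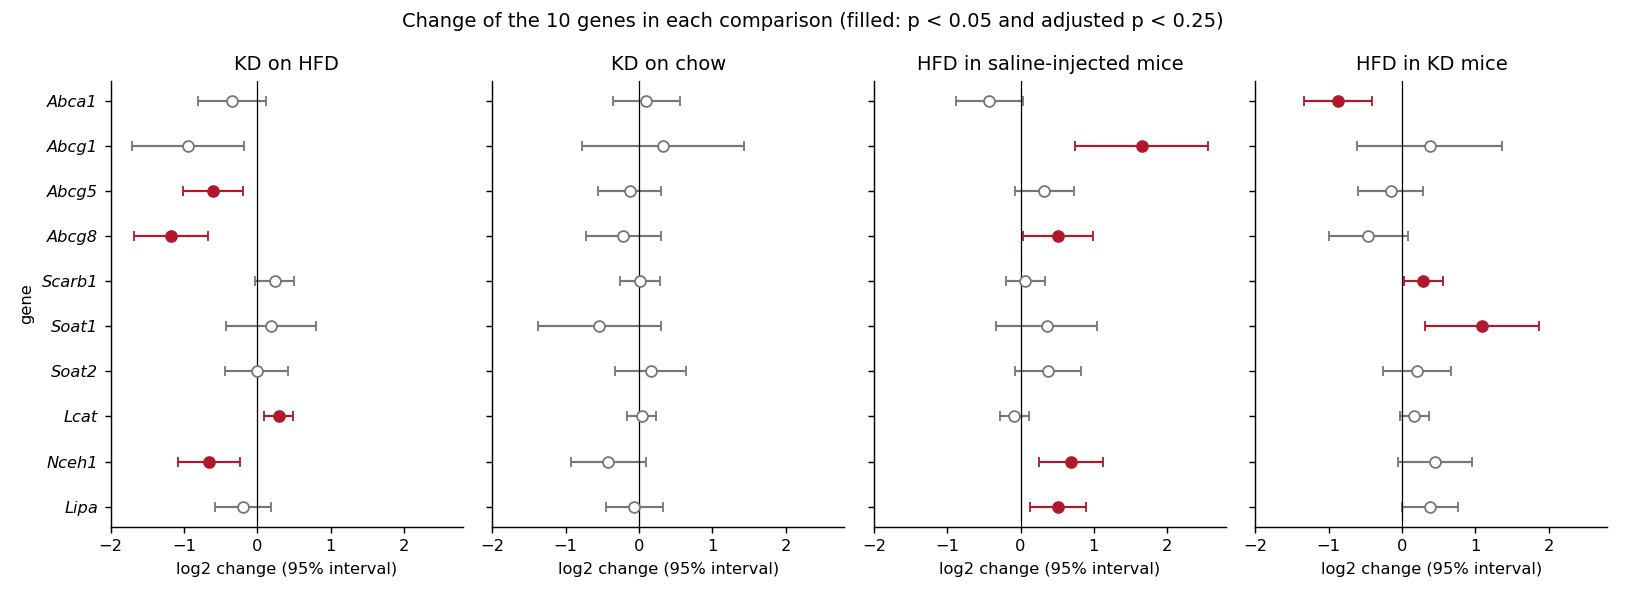
Log2 change of each of the 10 genes in the 4 comparisons of 2 groups, with 95% intervals from limma-voom; filled red points have p under 0.05 and adjusted p under 0.25. KD on HFD shows 3 filled points left of 0 and *Lcat* right of it, KD on chow shows none, and HFD in saline-injected mice shows 4 filled points, all right of 0.

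On chow, the same KD called 0 of the 10 genes with limma-voom, 0 at an unadjusted p under 0.05, and 0 with edgeR or DESeq2, beside 0.00883% of all genes (*Fgfr4* itself). The groups overlapped for all 10, where they did not overlap for 2.52% of genes tested. *Abcg8* had 36.9, 48.0, 57.0 and 38.8 CPM in Chow and 49.8, 49.8, 43.3 and 19.02 CPM in Chow/FGFR4 KD. The lowest value, 19.02 CPM, came from Chow/FGFR4 KD 4, which stood apart, and the other 3 KD libraries lay within the range of the saline libraries. The log2 change of *Abcg8* on chow was -0.21 (SE 0.244, limma-voom, adjusted p 0.976) and turned to 0.10 without Chow/FGFR4 KD 4. *Abcg5* had 26.9, 37.3, 40.8 and 25.8 CPM in Chow and 34.1, 34.7, 30.6 and 19.3 CPM with KD, with the same library lowest and a log2 change of -0.13 (SE 0.205, adjusted p 0.980) that turned to 0.05 without it. Without that library *Abca1* went from 0.10 to -0.05, *Lcat* from 0.04 to -0.04, *Lipa* from -0.06 to 0.02 and *Abcg1* from 0.33 to 0.77, none of them called. The 95% intervals of the fold on chow were 0.604 to 1.23 for *Abcg8* and 0.678 to 1.23 for *Abcg5*.

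The difference between the KD effects on HFD and on chow was tested itself. It was called for 0 of the 10 genes (0.0353% of all genes; 1 of the 10 had an unadjusted p under 0.05). The smallest p was that of *Abcg8*, with a difference of -0.97 on the log2 scale (SE 0.342, p 0.0117, limma-voom, adjusted p 0.617). Without Chow/FGFR4 KD 4 the difference was -1.28 with an adjusted p of 0.118, and without both libraries that stood apart it was -1.32 with an adjusted p of 0.172. DESeq2 with all libraries gave -1.02 with an adjusted p of 0.187, also a call. The KD effects on *Abcg8* are given side by side, and whether they differ between the diets depends on that library and on the tool. *Abcg5* differed by -0.48 (SE 0.281, adjusted p 0.788) and *Abcg1* by -1.28 (SE 0.636, adjusted p 0.739).

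The balance between the partners was then measured within each library, where it does not depend on scaling. The log2 ratio of *Abcg5* to *Abcg8* counts was -0.40, -0.61, -0.78 and -0.85 in the HFD libraries and -0.09, -0.09, -0.08 and -0.07 in the HFD/FGFR4 KD libraries. The groups did not overlap, and the KD libraries lay close together. The means were -0.66 ± 0.20 and -0.08 ± 0.01 (SD, n = 4), a difference of 0.57 with p = 0.0286 in a two-sided exact permutation test, the smallest p that 4 against 4 allows, and 0.229 after adjustment over 8 such tests. In Chow the ratio was -0.47 ± 0.09 and in Chow/FGFR4 KD it was -0.39 ± 0.27, where Chow/FGFR4 KD 4 stood at 0.02 and the others between -0.54 and -0.50 (exact permutation test, p = 0.771). The libraries with the least *Abcg8* were those with a ratio near 0. *Abcg8* is the denominator of the ratio, so a low level of it raises the ratio by construction. The ratio of *Soat2* to *Soat1* did not differ beyond its spread in any of 4 comparisons (exact permutation tests, p from 0.114 to 0.971).

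**Figure D3:**
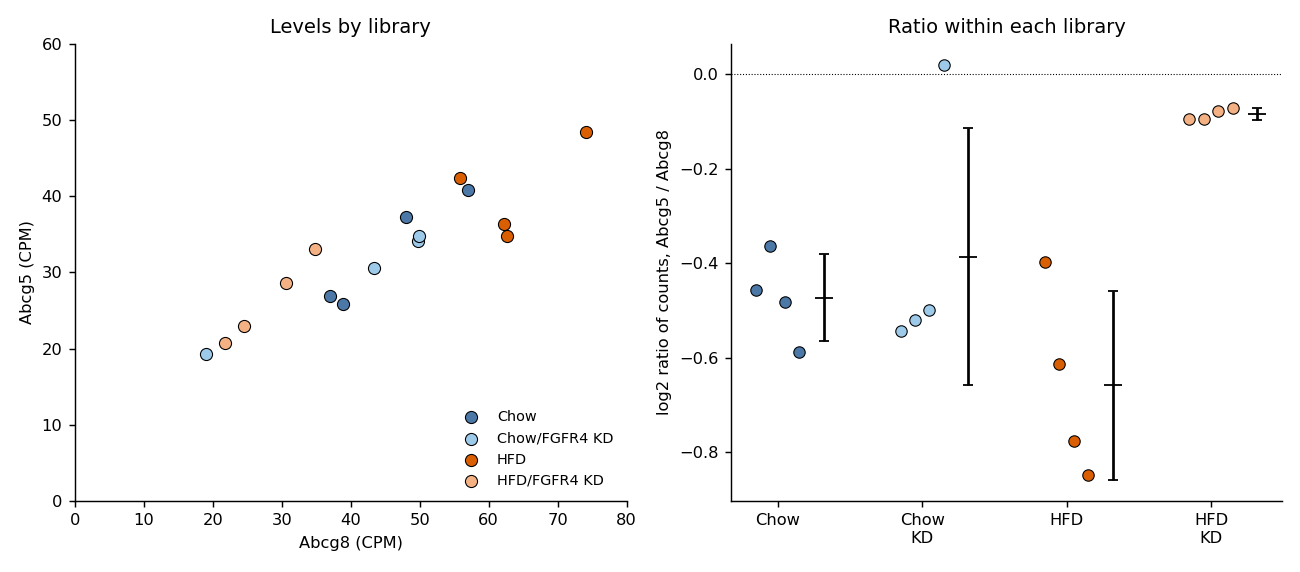
Left, *Abcg5* against *Abcg8* in each of the 16 libraries, in TMM-scaled CPM; right, the log2 ratio of their counts in each library by group, with mean ± SD as the black mark and bar. The 4 HFD/FGFR4 KD libraries lie at the lower left of the first panel, together with Chow/FGFR4 KD 4, and between -0.09 and -0.07 in the second.

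To see which genes followed each of these genes from mouse to mouse, group means were subtracted from log2 CPM and Pearson's r was taken over the 16 libraries with every gene of at least 5 CPM on average, as a description. *Abcg5* and *Abcg8* were each other's closest gene of 8799, with r = 0.907. The next closest to *Abcg5* were *Ccdc59* (0.858) and *Dnmbp* (0.849), and to *Abcg8* they were *Tprkb* (0.873) and *Dnmbp* (0.873). The pair shares the libraries, their depth and a stretch of annotation. Their ratio did not overlap between HFD and HFD/FGFR4 KD. Its p of 0.0286 (exact permutation test) was the smallest that 4 against 4 allows, and was 0.229 after adjustment over 8 tests. A test of this size could not settle whether the proportion changed. No other 2 of the 10 genes ranked so near: *Lipa* and *Soat2* had r = 0.726 (rank 240 for *Lipa*) and *Abca1* and *Abcg1* had r = -0.74.

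The closest genes to the others came from elsewhere. For *Nceh1* they were *Cpt1a* (0.933), which carries fatty acids into mitochondria, *Rgs3* (0.905) and *March7* (0.838). For *Abca1* they were *Canx* (0.914), a chaperone of the endoplasmic reticulum, *Ap2a1* (0.907) and *Hyou1* (0.903). *Lipa* was closest to *Tcn2* (0.977), which carries vitamin B12, *Anxa6* (0.958) and *Adh1* (0.956), and *Lcat* to *Gpx1* (0.872), *Serping1* (0.872) and *Atp13a2* (0.862). *Abcg1* was closest to *Baiap2* (0.935), *Pacs2* (0.922) and *Gtf2a1* (0.891), *Soat1* to *Trim12c* (0.848), *Slc25a22* (0.833) and *Arid1b* (0.797), and *Scarb1* to *Gm48764* (0.840), *Ccz1* (0.838) and *Hmbox1* (0.834).

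HFD in saline-injected mice asks what 12 weeks on this diet did to these genes. The diets also differ in carbohydrate, and the study names more dietary cholesterol in the HFD. The part of fat alone cannot be told apart. Of the 4 efflux transporters, *Abcg1* rose 3.14-fold and *Abcg8* 1.42-fold, while *Abcg5* and *Abca1* did not pass the test. Both hydrolases rose, *Nceh1* 1.61-fold and *Lipa* 1.42-fold. Both enzymes of intracellular esterification and the HDL receptor *Scarb1* did not pass the test, and no gene of the 10 fell. Limma-voom called 4 of 10 genes, all higher, where it called 26% of all genes and 13.3% as higher, and the median log2 change of the 10 was 0.37 beside 0.01 over all genes. At an adjusted p under 0.05 it called 2 (*Abcg1* and *Nceh1*), with 9.2% of all genes. These counts stand against a background in which 26% of genes moved with the diet. The libraries did not overlap for *Abcg1* and *Nceh1*, which was so for 16.1% of genes.

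*Abcg1* had 1.64, 0.522, 1.42 and 2.84 CPM in Chow against the 3.84 to 5.67 CPM of the HFD libraries given above. The highest Chow library lay below the lowest HFD library. Counts behind these values were 2 to 12 in Chow and 19 to 37 on HFD, and the 2 counts of Chow 2 are below the floor of 3 counts. It rose by 1.65 on the log2 scale (SE 0.430, limma-voom, adjusted p 0.0233; 95% interval of the fold 1.68 to 5.90) and was called without any single library and under all 11 other settings. *Nceh1* had 21.3, 27.4, 24.1 and 22.96 CPM in Chow, all below the 29.9 CPM of the lowest HFD library, and rose by 0.69 on the log2 scale (SE 0.205, limma-voom, adjusted p 0.0448), also called in every alternative run.

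*Lipa* (ENSMUSG00000024781, minus strand of chromosome 19, 34492318 to 34527474), the lysosomal acid lipase, had 151, 135, 209 and 192 CPM in Chow and 305, 196, 293 and 193 CPM on HFD. Its HFD libraries fell into a high and a low pair, and the low pair lay inside the Chow range. The rise of 0.51 on the log2 scale (SE 0.182, limma-voom, adjusted p 0.0884) was lost without Chow 2 or HFD 1. *Abcg8* rose from 45.2 ± 9.25 CPM to 63.7 ± 7.61 CPM (SD, n = 4), with Chow 3 at 57.0 CPM inside the HFD range, by 0.51 on the log2 scale (SE 0.226, limma-voom, adjusted p 0.168). This call was lost without Chow 1, Chow 4, HFD 2, HFD 3 or HFD 4, with adjusted p up to 0.362. *Abcg5*, its partner, was at 32.7 ± 7.48 CPM in Chow and 40.5 ± 6.23 CPM on HFD, a log2 change of 0.33 (SE 0.189, adjusted p 0.291) that was called when Chow 3 was left out (0.45, adjusted p 0.168).

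*Abca1* did not share the direction of *Abcg1*. It had 213, 197, 129 and 153 CPM in Chow, and its log2 change with HFD was -0.42 (SE 0.217, limma-voom, adjusted p 0.231; p 0.0682), which was not called. Its p passed the threshold when Chow 3 or HFD 4 was left out and under 4 of 11 other settings, among them the one without both libraries that stood apart (-0.43, adjusted p 0.120). The 95% interval of the fold was 0.542 to 1.02. *Scarb1* (ENSMUSG00000037936, minus strand of chromosome 5, 125277087 to 125341094) was at 110 ± 8.47 CPM in Chow and 115 ± 12.9 CPM on HFD, with an interval of 0.872 to 1.26, the narrowest apart from *Lcat* at 0.824 to 1.08. *Soat2* (ENSMUSG00000023045, plus strand of chromosome 15, 102150526 to 102163469), the hepatocyte form, went from 19.5 ± 1.82 to 25.5 ± 5.75 CPM (adjusted p 0.279), and was called without HFD 4 (0.50, adjusted p 0.155) and without both libraries that stood apart (0.38, adjusted p 0.147). *Soat1* (ENSMUSG00000026600, minus strand of chromosome 1, 156424525 to 156474331), the form of macrophages and most other cells, was at 2.32 ± 0.790 and 3.03 ± 0.856 CPM (adjusted p 0.525). Of the 31-base words of *Soat2*, 4.03% occurred in other genes, the highest share among the 10.

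Markers of other liver cells moved with the diet. Of 12 macrophage and Kupffer cell markers tested, from a list of 17, 11 rose with HFD in saline-injected mice, and the summed level of the 17 ran from 96.7 to 99.8 CPM in Chow, 117 to 159 in Chow/FGFR4 KD, 164 to 287 in HFD and 142 to 244 in HFD/FGFR4 KD. None of the 17 was at 0 in a whole group. *Clec4f* and *Vsig4*, which define Kupffer cells, rose by 0.84 and 1.24 on the log2 scale, and *Timd4* did not pass the test (0.68, adjusted p 0.270, limma-voom). Of 8 stellate cell markers 5 rose, with sums of 111 to 151 CPM in Chow and 181 to 327 CPM in HFD, and *Lrat*, which defines these cells, did not pass the test (0.38, adjusted p 0.541). Of 11 clock genes tested, 5 rose and 4 fell. The sum of 5 adipocyte markers was 0.793 to 11.4 CPM in Chow, 0 to 3.37 in Chow/FGFR4 KD, 10.9 to 24.6 in HFD and 3.82 to 8.63 in HFD/FGFR4 KD, with 1 to 2 of them at 0 in every library of a group. Of 8 sinusoidal endothelial markers 2 rose, of 2 cholangiocyte markers tested 0 were called, and none of 6 lymphocyte markers passed the filter, with sums of at most 3.85 CPM. *Abcg1*, *Nceh1* and *Lipa* are genes that macrophages also use, and the part of these cells or of the clock in their rise was not tested.

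With KD on HFD, 0 of the 12 macrophage and 0 of the 8 stellate markers were called with limma-voom. Of 8 sinusoidal endothelial markers 0 were called, but 0 had a positive change and their median was -0.24. Their sums were 126 to 149 CPM in HFD and 103 to 135 CPM in HFD/FGFR4 KD, the direction of *Abcg8* and *Abcg5*. With KD on chow 1 of these 8 markers had a positive change and their median was -0.20, while *Abcg8* and *Abcg5* were not called. Of the hepatocyte markers *Ttr* fell with KD on HFD, by 0.51 (limma-voom, adjusted p 0.0790). The stellate sum was 126 to 211 CPM in HFD/FGFR4 KD, and 2 clock genes rose and 2 fell. The 1 adipocyte marker tested, *Cfd*, fell by 1.57 on the log2 scale (adjusted p 0.228), and its part in the changes of the 10 genes was not tested. Within groups, log2 *Lipa* followed the log2 stellate sum with r = 0.854 over 16 libraries and *Abca1* ran against it with r = -0.69. The macrophage sum had r = -0.01 with *Lipa*, 0.0997 with *Abcg1* and -0.23 with *Nceh1*. For *Abcg8* and *Abcg5* these values were 0.297 and 0.235 with the stellate sum and -0.37 and -0.25 with the macrophage sum. Other lists gave larger values for some genes. The sinusoidal endothelial sum had r = 0.768 with *Abcg1*, 0.534 with *Abcg8* and -0.59 with *Abca1*. The hepatocyte sum had r = 0.793 with *Soat2* and 0.768 with *Lipa*, the clock sum had r = -0.77 with *Lipa*, and the adipocyte sum had r = 0.526 with *Abcg8*. The part of these cells in the changes was not tested. All are descriptions over libraries that share their depth and groups. Chow/FGFR4 KD 4, which stood apart, had the lowest endothelial (77.2 CPM) and stellate (89.3 CPM) sums of all libraries. It also had the lowest *Abcg8* (19.02 CPM), the highest *Abca1* (253 CPM) and 2 counts of *Abcg1*. These values of r were not recomputed without it.

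**Figure D4:**
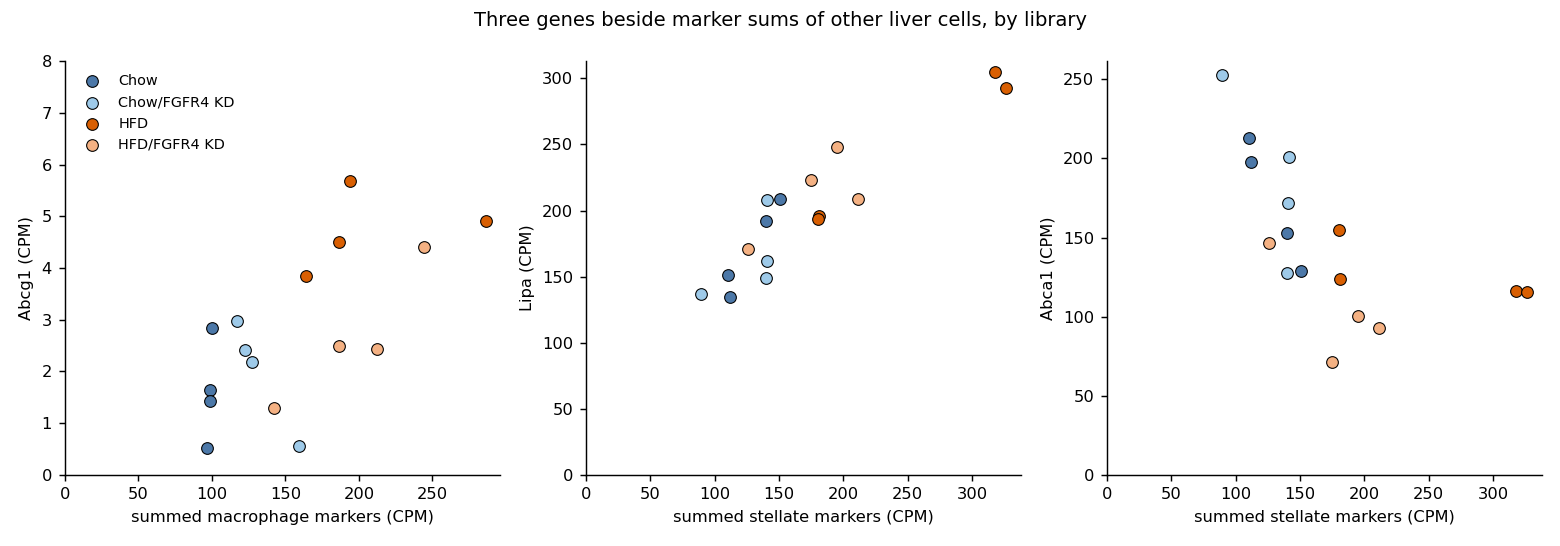
*Abcg1* against the summed macrophage markers, and *Lipa* and *Abca1* against the summed stellate cell markers, in TMM-scaled CPM on axes that start at 0; each point is 1 of 16 libraries. HFD libraries lie to the right of Chow libraries in all panels, HFD 1 and HFD 3 have the highest stellate sums (318 and 327 CPM) and the highest *Lipa*, and *Abca1* tends to be lower where the stellate sum is higher.

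HFD was also compared within KD mice, on libraries that overlap with those above, so the values are set side by side. *Abca1* fell to 0.547, *Soat1* rose 2.12-fold and *Scarb1* rose 1.22-fold. Limma-voom called 3 of 10 genes, 2 higher and 1 lower, where it called 20.2% of all genes (10.1% as higher and 10.1% as lower), and 1 at an adjusted p under 0.05 (*Abca1*), with 3.1% of all genes. With scaling by library totals the split was 5 higher and 1 lower, where 2279 of 11324 genes were called. *Soat1* was the 1 gene of 10 without overlap, where 11.5% of all genes had none. In the same comparison 4 of 12 macrophage markers rose (median of the 12 tested 0.51), 2 of 8 stellate markers rose, 2 hepatocyte markers rose and 2 fell, and 6 clock genes rose and 4 fell. Their part in the changes of *Abca1*, *Soat1* and *Scarb1* was not tested.

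*Abca1* had 172, 128, 201 and 253 CPM in Chow/FGFR4 KD and 71.5 to 147 CPM in HFD/FGFR4 KD. Chow/FGFR4 KD 2, at 128 CPM, lay within the range of the HFD/FGFR4 KD libraries. The log2 change was -0.87 (SE 0.220, limma-voom, adjusted p 0.0425), beside -0.42 in saline-injected mice, and was called without each of 8 single libraries (-1.06 to -0.71) and under all 11 other settings (-0.90 to -0.72). *Soat1* had 0.992, 2.14, 2.29 and 1.10 CPM in Chow/FGFR4 KD and 2.39, 3.54, 3.16 and 4.92 CPM in HFD/FGFR4 KD. The change of 1.09 on the log2 scale (SE 0.368, limma-voom, adjusted p 0.115) rests on 4 to 19 counts per library and was lost without Chow/FGFR4 KD 1 (adjusted p 0.268). *Scarb1* rose by 0.29 (SE 0.126, adjusted p 0.212), a call lost without 6 of 8 libraries (all but Chow/FGFR4 KD 2 and HFD/FGFR4 KD 2), with adjusted p up to 0.426.

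The 4 genes called in saline-injected mice did not pass the test under KD with all libraries and limma-voom. *Abcg8* was at -0.46 (SE 0.256, limma-voom, adjusted p 0.331) where it was at 0.51 in saline-injected mice, and without Chow/FGFR4 KD 4 it was at -0.78 and called (adjusted p 0.0391). It was also called lower in 5 of 11 other settings. These were edgeR (adjusted p 0.208), DESeq2 (0.202), library quality weights (0.0889), the replicate block and the run without both libraries that stood apart. Over the 11 settings its log2 change ran from -0.82 to -0.29. *Abcg1* was at 0.37 (SE 0.469, adjusted p 0.702) where it was at 1.65, and at -0.07 without Chow/FGFR4 KD 4. *Lipa* (0.38, adjusted p 0.254; called in 5 of 11 other settings and without Chow/FGFR4 KD 1 or HFD/FGFR4 KD 1) and *Nceh1* (0.45, adjusted p 0.313) kept the sign. Without both libraries that stood apart *Soat2* (0.41, adjusted p 0.241) and *Lcat* (0.25, adjusted p 0.162) were called higher and *Scarb1* was not called (0.19, adjusted p 0.496). The difference between the 2 diet effects is the same quantity as the difference between the KD effects given above, and was called for none of the 10 genes. Across the 4 groups, mean *Abcg8* was ordered HFD, Chow, Chow/FGFR4 KD, HFD/FGFR4 KD at 63.7, 45.2, 40.5 and 27.9 CPM, of which Chow and Chow/FGFR4 KD, and Chow/FGFR4 KD and HFD/FGFR4 KD, did not pass the test. Mean *Abca1* was ordered Chow/FGFR4 KD, Chow, HFD, HFD/FGFR4 KD at 188, 173, 128 and 103 CPM, and no neighbours in that order passed the test.

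Other genes of cholesterol handling were examined from lists. Of 17 LXR genes and LXR targets outside the 10, 16 were tested. With KD on HFD 0 were called (limma-voom), and the median log2 change was -0.02, with 7 of 16 positive. The receptors *Nr1h3* (LXRα) and *Nr1h2* (LXRβ) changed by 0.01 (SE 0.106) and 0.16 (SE 0.130) and did not pass the test. With HFD in saline-injected mice, 3 of 16 rose, where 13.3% of all genes were called higher, and the median was 0.35. *Apoe*, the ligand for remnant uptake, rose by 0.41 (limma-voom, adjusted p 0.0126). *Apoc2*, the activator of lipoprotein lipase, rose by 1.23 (adjusted p 0.0310) and *Srebf1*, which drives fatty acid synthesis, by 0.82 (adjusted p 0.0852).

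Of 9 HDL genes tested, KD on HFD called 0, while HFD called 2 higher and 3 lower. The counts of this paragraph stand beside 3.14% of all genes called with KD on HFD and 26% with HFD in saline-injected mice. *Apoa4*, an acceptor for ABCA1, rose by 4.12 on the log2 scale (adjusted p 0.000498, limma-voom) from 67.6 ± 4.71 to 1499 ± 1114 CPM, and *Apom*, an HDL protein, fell by 0.98 from 123 ± 17.7 to 61.9 ± 5.68 CPM. *Lipg*, the endothelial lipase that degrades HDL, rose by 0.99. Of 14 genes of sterol movement inside the cell, KD called 0 and HFD 2: *Npc1*, which lets cholesterol leave the lysosome, by 0.52 and *Gramd1c*, a sterol carrier, by 0.26. Of 10 lysosomal genes beside *Lipa*, *Lamp1* fell by 0.25 with KD (adjusted p 0.190), and with HFD 3 rose and 2 fell. *Psap*, which encodes the saposins, rose by 0.50 with HFD.

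Genes of cholesterol supply were examined beside these. With KD on HFD, 12 of 18 genes of synthesis and LDL uptake rose, 0 fell, and all 18 had a positive log2 change. Their median was 0.78, and that of the 10 genes was -0.27. The latter is no measure of removal, since the 10 include uptake (*Scarb1*) and esterification (*Soat1*, *Soat2*, *Lcat*). *Scarb1*, *Soat1* and *Lcat* had a positive change and the other genes of the 10 a negative one. *Tm7sf2*, *Idi1* and *Nsdhl* were the 3 with the smallest p, at 0.75, 1.18 and 0.85. With HFD in saline-injected mice the median of the 18 was -0.22 with 2 higher and 3 lower, beside 0.37 for the 10 genes. *Tm7sf2*, *Idi1* and *Cyp51* fell by 0.58, 0.70 and 0.63. Bile acid output gave 3 of 7 genes higher with KD on HFD (*Cyp7a1*, *Abcb11* and *Cyp27a1*, by 2.45, 0.74 and 0.32). Among canalicular transporters *Abcb11*, which exports bile acids, was higher with KD on HFD while *Abcg5* and *Abcg8*, which export sterols, were lower. With HFD in saline-injected mice *Abcb11* fell by 0.68 and *Cyp27a1* by 0.53, and *Abcb4*, which exports phospholipid, rose by 0.54.

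**Figure D5:**
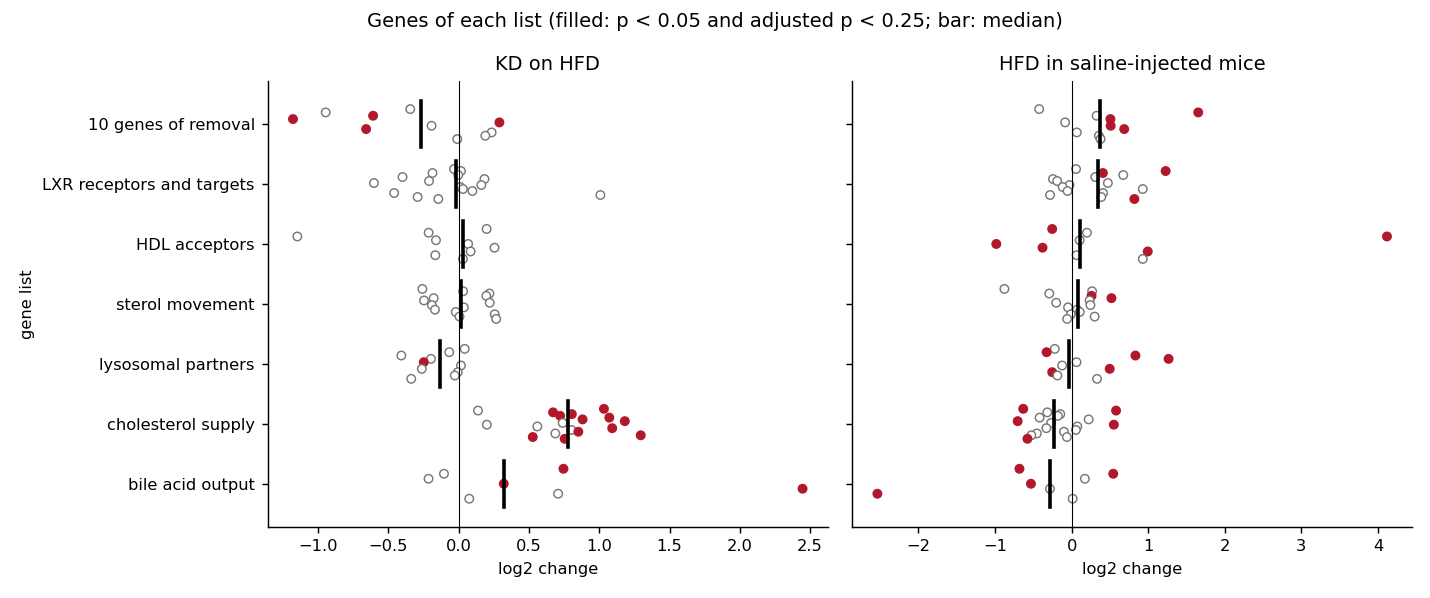
Log2 change of the genes of 7 lists with KD on HFD (left) and with HFD in saline-injected mice (right); each point is a gene, filled where p was under 0.05 and adjusted p under 0.25 (limma-voom), and the black bar is the median of the list. The horizontal scales of the panels differ. In the left panel cholesterol supply has its median at 0.78 and the 10 genes theirs at -0.27. In the right panel these medians are -0.22 and 0.37. The 10 genes are labelled as genes of removal but also hold genes of uptake and esterification.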

How the data were processed

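The authors deposited 1 table of expected counts (estimated counts, with no normalisation) per gene for 16 liver libraries. The labels name a KAPA mRNA HyperPrep kit and the methods HTG EdgeSeq, and which of them made the libraries was not settled. According to the methods, reads were pseudoaligned with kallisto (fastp and GRCm38 are also named in the submitters' notes) and summed to genes with tximport. The transcriptome release and the use of strand are not given in the sources used here. In each library 7.85% to 11.1% of values were not whole. All columns matched a sample.

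The filter on low counts, after the study, kept a gene if at most 4 of the 16 libraries were below 1 CPM. Counts were scaled with TMM (edgeR 4.0.16; factors 0.836 to 1.17) and fitted with limma-voom (limma 3.58.1, R 4.3.3), with a mean for each of the 4 groups over all 16 libraries and Benjamini-Hochberg adjustment over 11324 genes. Python 3.11.15 was used for sequences and figures. Ratios had 0.5 added to each count. Shared sequence is the share of 31-base words of a gene's GENCODE transcripts found in other genes, and positions are from GENCODE for GRCm38. The pipeline was tested on simulated data. Duplicates were checked: the lowest chi-square per degree of freedom between libraries of a group was 7.59, where copies give about 1.

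All 10 members are named. From each pathway list at most 3 called genes with the smallest p are named, in KD on HFD and in HFD in saline-injected mice, for marker lists the defining markers, and for *Abcg5* and each called gene the 3 genes most like it. Single values from the lysosomal list that this rule names are in part not reported here. The members and the lists were chosen with earlier results of these data known, and the motifs after their promoters were read.

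Results were recomputed with DESeq2 1.42.0 (counts rounded) and with edgeR's quasi-likelihood fit, with other filters and scalings, with Gm42418 and Lars2 removed, with library quality weights, with the compared groups alone, with the replicate number as a block, at an adjusted p under 0.05 and with each library omitted. Leaving out both libraries that stood apart was added after the data were seen.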

Additional observations from a re-analysis of the deposited data

Results flagged for a closer look

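In 80 sets of 4 libraries (the CPM of 10 genes, 2 ratios and 8 summed lists in 4 groups), a single library lay far from its group in 5, where chance gives about 4 (1 in 20 sets). The log2 ratio of *Abcg5* to *Abcg8* was 0.0206 in Chow/FGFR4 KD 4, with the other 3 libraries of the group between -0.54 and -0.50. The same library had the lowest summed stellate cell markers of its group (89.3 CPM) and the highest summed cholangiocyte markers (57.3 CPM). Summed cholangiocyte markers were 51.1 CPM in Chow 3, the highest of that group. Summed sinusoidal endothelial markers were 126 CPM in HFD 1, the lowest of that group.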

How the results depend on the processing

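Of 1020 values of single genes under alternatives, 930 stayed on their side of the threshold, 52 calls were lost, 38 were gained and 0 reversed. Most of the 1020 values belong to results that were not called in the main fit. The 52 lost calls come only from results called there. These were 4 with KD on HFD, 4 with HFD in saline-injected mice and 3 with HFD in KD mice. Among values that were not called, 32 changed sign. *Abcg8* with KD on HFD, *Abcg1* and *Nceh1* with HFD in saline-injected mice and *Abca1* with HFD in KD mice were called without each of 8 single libraries and under 11 other settings; the stricter threshold is counted below.

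With KD on HFD, 4 of the 10 genes were called, and 1 at an adjusted p under 0.05, with edgeR or with library totals, 2 with only the groups compared or without both libraries that stood apart (chosen after seeing the data), and 1 to 4 without single libraries. With HFD in saline-injected mice, 4 were called, 2 at an adjusted p under 0.05 and 3 to 6 without single libraries. Library totals called 7, all higher, beside 4306 of 11324 genes. With HFD in KD mice, 3 were called, 1 at an adjusted p under 0.05 and 2 to 4 without single libraries. Library totals called 6, beside 2279 of 11324 genes. Upper quartiles called 5, beside 2268 of 11324 genes, and quality weights 5, beside 2642 of 11324. Without both libraries 5 were called, beside 2165 of 11528 genes. The difference between the KD effects gave 0, 1 with DESeq2 and without both libraries, and 0 to 1 without single libraries. Library totals moved the median of all genes by 0.28 with HFD in saline-injected mice, by 0.15 with HFD in KD mice and by -0.13 in the difference of the KD effects. Over all genes, KD on HFD gave 356 calls, 114 with library totals, 222 with only the groups compared, 209 without both libraries, 776 with quality weights and 89 to 605 without single libraries; HFD in saline-injected mice gave 2939 and 5180 with no filter; HFD in KD mice gave 2293 and 1189 to 2546 without single libraries; KD on chow gave 1, 3 with library totals and 2 with DESeq2 or only the groups compared; and the difference gave 4, 62 with DESeq2, 0 with library totals, 7 with quality weights, 2 with the block, 10 without both libraries and 1 to 27 without single libraries. Other causes were not tested.

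With a replicate block, 2 of the 10 genes were called with KD on HFD (*Abcg5* and *Abcg8*), 0 with KD on chow, 4 and 4 with HFD and 0 for the difference. Over all 11324 genes the block gave 259 calls with KD on HFD and 1 with KD on chow. It gave 2949 with HFD in saline-injected mice, 2295 with HFD in KD mice and 2 for the difference. Same-numbered libraries had correlations from -0.30 to 0.24, so the numbers were not taken to pair the mice.

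With the median transcript length, *Abca1* moved from rank 4 to rank 6 in level per kb, *Abcg8* from 6 to 4, and *Scarb1* and *Lipa* exchanged ranks 2 and 3. *Abcg1* and *Soat1*, with 2 to 37 counts per library, limit what can be said of macrophage-type efflux and esterification.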
